A study of Mus musculus with 3 samples.

Results

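The genes described here are 8 genes of slow-twitch muscle fibres, among 32285 genes counted in Visium sections of mouse skin wounds. They were taken by symbol: Myh7, Myl2, Myl3, Tnnt1, Tnnc1, Tnni1, Atp2a2 and Tpm3, and all 8 were found in the gene lists of the 3 slides. They were chosen on the near absence of Myl2 and Myh7 from the tissue-covered spots of Day 7. Those levels, and every contrast with Day 7 on either side, are given as descriptions only. The unmarked spots of Day 7 belong to the same section, so they give no separate support. Each slide was 1 section of wounded dorsal skin from adult male C57BL/6J mice, taken 3, 7 or 14 days after full-thickness punch wounding. All 3 groups share the strain and the wound, the labels give no other allele or treatment, and unwounded skin was not analysed here. With 1 section per day, animal, section and slide cannot be told apart from day, and no test between days was possible.

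A Visium slide carries spots with positional barcodes that capture polyadenylated RNA from the tissue above them, and each captured molecule is counted once by its unique molecular identifier (UMI). A spot covers several cells. The authors marked 664, 549 and 697 of the 4992 spots as lying under tissue on Day 3, Day 7 and Day 14, and the same 4992 positional barcodes occur on all 3 slides. Muscle transcripts were not limited to the marked area: the fast partners of the 6 sarcomeric slow genes reached 55802, 73863 and 86305 UMIs per 1000000 UMIs (CPM) in unmarked spots, against 25030, 31537 and 36757 CPM in marked spots. Whether unmarked spots lay under tissue or caught RNA that had spread was not settled by the files, which bears on every value given for them. Both sides are described, as "under tissue" and "outside", and all intervals given cover counting error only. Totals were 1772259, 4442962 and 4611723 UMIs under tissue and 1703210, 6457066 and 4715272 UMIs outside, so a level on Day 3 carried the widest counting error. Because 1 tag is counted per molecule, CPM were compared between genes without dividing by length. In pooled spots, fewer fibres of a type and less RNA per fibre cannot be told apart.

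Skeletal muscle fibres use different versions of the same contractile proteins. Slow fibres, built for posture and endurance, carry the slow myosin heavy chain with its own light chains, a slow troponin complex and a slow calcium pump, whereas fast fibres carry fast versions made by other genes. Mouse skin overlies a thin sheet of muscle, the panniculus carnosus, which is mostly fast, and slow versions of several of these proteins are also made for a time by young fibres during development and regeneration.

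All 8 genes were placed by identifier in the GENCODE M21 annotation of GRCm38, the assembly also called mm10, which the submitters' processing notes name. Myh7 lies on chromosome 14 from 54970684 to 54994626 on the minus strand, and Myl2 lies on chromosome 5 from 122100951 to 122113472 on the plus strand. Tnni1 lies on chromosome 1 from 135779434 to 135810989 on the plus strand. The start-site windows of these 3 genes are shown because Myh7 and Myl2 were nearly absent together on Day 7 while Tnni1 was not. Each window runs from 250 bases before to 50 bases after an annotated start: the window of Myh7 at chr14:54994577-54994876 and that of Tnni1 at chr1:135799171-135799470 follow RefSeq starts, and that of Myl2 at chr5:122100701-122101000 was read from the GRCm38.p6 genome at the GENCODE start. Capitals mark E-boxes (CANNTG, the sites of muscle basic helix-loop-helix factors) and the MCAT element (CATTCC, a site of TEAD factors), searched on both strands.
Myh7: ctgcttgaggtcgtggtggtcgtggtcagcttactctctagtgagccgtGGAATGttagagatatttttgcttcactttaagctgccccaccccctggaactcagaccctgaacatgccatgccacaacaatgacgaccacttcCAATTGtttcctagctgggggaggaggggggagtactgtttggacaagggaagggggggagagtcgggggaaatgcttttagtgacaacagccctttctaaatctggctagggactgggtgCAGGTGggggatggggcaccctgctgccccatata
Myl2: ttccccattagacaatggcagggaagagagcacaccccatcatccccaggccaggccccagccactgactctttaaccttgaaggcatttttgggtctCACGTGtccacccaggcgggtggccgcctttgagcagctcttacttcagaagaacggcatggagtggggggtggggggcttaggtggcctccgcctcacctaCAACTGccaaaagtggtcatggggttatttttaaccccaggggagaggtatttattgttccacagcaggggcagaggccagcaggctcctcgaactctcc
Tnni1: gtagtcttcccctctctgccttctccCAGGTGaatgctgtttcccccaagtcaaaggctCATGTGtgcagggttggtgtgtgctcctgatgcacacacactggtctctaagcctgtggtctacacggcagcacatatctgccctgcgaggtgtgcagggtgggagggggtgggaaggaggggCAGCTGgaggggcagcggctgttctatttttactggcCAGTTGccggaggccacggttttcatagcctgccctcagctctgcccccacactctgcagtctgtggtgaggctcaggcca
The Myh7 window held 2 E-boxes and 1 MCAT element, the Myl2 window held 2 E-boxes and the Tnni1 window held 4 E-boxes. Of 32851 RefSeq start windows of the same length, 72.3% held an E-box and 14.7% an MCAT element, so the matches describe the letters and no more. The matches depend on the start taken: a second RefSeq start of Myh7 gave a window with no MCAT element, and the GENCODE start of Tnni1 gave 3 E-boxes and 1 MCAT element. The starts of Myl2 also differ between the annotations, and the counts do not show which start was used.

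Myh7, the slow myosin heavy chain and the molecular motor of slow fibres, was counted at 181 CPM under tissue on Day 3 (321 UMIs, 95% Poisson interval 162 to 202). On Day 7 it had 2 UMIs under tissue, or 0.45 CPM (0.055 to 1.63), and on Day 14 it had 86 UMIs, or 18.6 CPM (14.9 to 23.0). Outside, its levels were 330.0 CPM (562 UMIs), 0.31 CPM (2 UMIs) and 48.1 CPM (227 UMIs) on Day 3, Day 7 and Day 14. The near absence on Day 7 thus held on both sides of the slide, with 4 UMIs in 10900028. Day 14 was 9.71-fold lower than Day 3 under tissue (7.63 to 12.47) and 6.85-fold lower outside (5.86 to 8.03), and the Day 3 and Day 14 intervals did not overlap on either side.

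Myl2, the slow regulatory light chain that tunes this motor, had the same order of days. Under tissue it stood at 199.7 CPM on Day 3 (354 UMIs), had no UMI on Day 7 and stood at 18.2 CPM on Day 14 (84 UMIs). With 0 among 4442962 UMIs on Day 7, the upper limit of the Poisson interval was 0.830 CPM. The near end of the ratio interval put Day 7 239-fold below Day 3 (log2 ratio -7.90). Outside, its levels were 325 CPM (553 UMIs), 0.155 CPM (1 UMI) and 52.2 CPM (246 UMIs), and the Day 7 level was lower than that of Day 3 by a log2 ratio of -11.03 (interval -16.34 to -8.55). A single Myl2 UMI was therefore counted on the whole Day 7 slide.

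Myl3, the slow essential light chain, followed the same order of days with a few more molecules on Day 7. Its levels under tissue were 169 CPM (299 UMIs), 1.80 CPM (8 UMIs) and 36.6 CPM (169 UMIs). Outside they were 282 CPM (481 UMIs), 2.63 CPM (17 UMIs) and 56.6 CPM (267 UMIs). Each of the 25 Myl3 UMIs of Day 7 lay alone in its spot, since no spot held more than 1. Outside, Day 7 was 107-fold lower than Day 3 (66.3 to 186) and Day 14 was 21.5-fold higher than Day 7 (13.2 to 37.5).

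The 3 slow troponins, which bind the thin filament and pass the calcium signal to it, differed from the myosin genes and from each other on Day 7. Tnnt1, the slow subunit that binds tropomyosin, stood at 133 CPM (235 UMIs), 11.7 CPM (52 UMIs) and 21.03 CPM (97 UMIs) under tissue on the 3 days. Outside, it stood at 189.6 CPM (323 UMIs), 3.56 CPM (23 UMIs) and 44.7 CPM (211 UMIs). Day 7 was its lowest day on both sides, 11.3-fold below Day 3 under tissue (8.36 to 15.6) and 53.2-fold below it outside (34.9 to 85.2). Its Day 7 level outside overlapped that of Myl3 within counting error.

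Tnnc1, the calcium-binding subunit of slow and heart muscle, had 117 CPM (208 UMIs), 36.0 CPM (160 UMIs) and 24.1 CPM (111 UMIs) under tissue. Its Day 7 level there was above that of Day 14, with intervals of 30.6 to 42.0 and 19.8 to 29.0 CPM. Outside, the order of these 2 days was the reverse: 177 CPM (301 UMIs), 12.54 CPM (81 UMIs) and 39.9 CPM (188 UMIs) on Day 3, Day 7 and Day 14.

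Tnni1, the slow inhibitory subunit, had different Day 7 levels on the 2 sides. Under tissue it stood at 59.8 CPM on Day 3 (106 UMIs, 48.97 to 72.3) and at 48.2 CPM on Day 7 (214 UMIs, 41.9 to 55.1), which are not separated beyond counting error. The Day 14 level was 16.9 CPM (78 UMIs), 2.85-fold below Day 7 (2.19 to 3.74). Outside, it stood at 82.2 CPM (140 UMIs), 13.8 CPM (89 UMIs) and 20.1 CPM (95 UMIs), so there Day 7 was 5.96-fold below Day 3 (4.54 to 7.87) and Day 14 was higher than Day 7 by a log2 ratio of 0.55 (0.12 to 0.98).

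Atp2a2 encodes SERCA2, a calcium pump of slow and heart muscle whose other isoform is made in most cells, and Tpm3 encodes a tropomyosin with slow-fibre and widely made isoforms. Their largest ratios between days were smaller than those of the other members. Atp2a2 stood at 275 CPM (487 UMIs), 133 CPM (591 UMIs) and 152 CPM (703 UMIs) under tissue and at 255 CPM (435 UMIs), 94.0 CPM (607 UMIs) and 102 CPM (481 UMIs) outside. Tpm3 stood at 238 CPM (422 UMIs), 150.4 CPM (668 UMIs) and 130.3 CPM (601 UMIs) under tissue and at 261 CPM (445 UMIs), 83.6 CPM (540 UMIs) and 95.9 CPM (452 UMIs) outside. For both genes Day 3 was the highest day on both sides, and Day 7 and Day 14 differed by no more than 1.154-fold. The counts of 1 gene sum over its isoforms.

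**Figure D1:**
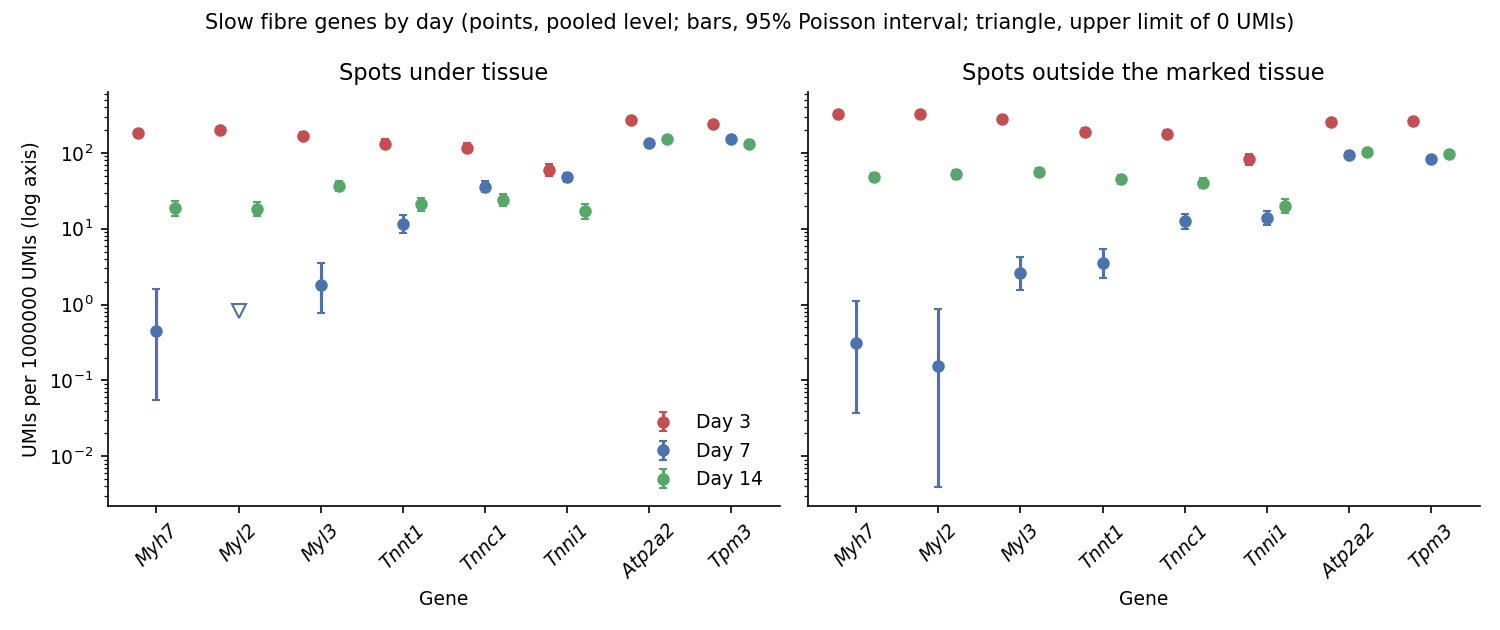
Pooled level of each gene in UMIs per 1000000 UMIs (log axis) on Day 3, Day 7 and Day 14, in spots under tissue (left) and outside (right). Points are pooled levels, bars 95% Poisson intervals and the open triangle the upper limit for Myl2 at 0 UMIs. Myh7, Myl2 and Myl3 lie below 3 CPM on Day 7 on both sides, whereas Atp2a2 and Tpm3 lie between 83.6 and 150.4 CPM.

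On Day 3 the order of levels under tissue was Atp2a2, Tpm3, Myl2, Myh7, Myl3, Tnnt1, Tnnc1 and Tnni1. Among the neighbours in this order only Tnnc1 and Tnni1 had intervals that did not overlap. On Day 7 the order was Tpm3, Atp2a2, Tnni1, Tnnc1, Tnnt1, Myl3, Myh7 and Myl2. Here the intervals of Atp2a2 and Tnni1, of Tnnc1 and Tnnt1, and of Tnnt1 and Myl3 were separate, and the intervals of Tnni1 and Tnnc1 touched only between 41.9 and 42.0 CPM. On Day 14 the light chain Myl3 followed Atp2a2 and Tpm3, above the other 5 sarcomeric genes, which ranged from 16.9 to 24.1 CPM and had overlapping intervals.

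Counts past 2-fold were set beside all genes with at least 50 UMIs over the pools compared. Outside, all 8 members were at least 2-fold lower on Day 7 than on Day 3, against 5.57% of 10599 genes. Their median log2 ratio was -4.78 beside 0.12 for all genes. The Day 7 spots outside belong to the section on which the members were chosen, so this count is a description too. Under tissue, in the contrast that chose the members, 6 of 8 were at least 2-fold lower, against 6.49% of 10541 genes. Tnni1 and Tpm3 were the members not past 2-fold there, with log2 ratios of -0.31 and -0.66.

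Day 14 lay between the other days for the myosin genes. Outside, 5 of 8 members, the myosin genes, Tnnt1 and Tnnc1, were at least 2-fold higher on Day 14 than on Day 7, against 5.31% of 11466 genes. Under tissue, 3 of 8, the myosin genes, were at least 2-fold higher, against 10.9% of 11746 genes, and Tnni1 was past 2-fold in the other direction. Against Day 3, all 8 members were still at least 2-fold lower on Day 14 outside (5.83% of 9944 genes), and 6 of 8 under tissue (6.83% of 10955 genes), the exceptions being Atp2a2 and Tpm3. These comparisons share sections, so their values are not independent of each other.

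The slow share was computed to set aside how much muscle each section held: the UMIs of the 6 sarcomeric slow genes over those UMIs plus the UMIs of their fast partners, in muscle-rich spots. Muscle-rich spots had at least 200 UMIs with at least 5% of them from 10 genes common to fast and slow fibres, among them Acta1 (skeletal actin), Ckm (muscle creatine kinase), Ttn (titin) and Tcap. There were 151, 86 and 156 such spots under tissue and 379, 1725 and 1952 outside. The fast partners were Myh1, Myh2 and Myh4 for Myh7, Mylpf for Myl2, Myl1 for Myl3, Tnnt3 for Tnnt1, Tnnc2 for Tnnc1 and Tnni2 for Tnni1. Under tissue the slow share was 4.31% on Day 3 (975 slow UMIs, interval 4.05 to 4.58), 0.0792% on Day 7 (15 UMIs, 0.0444 to 0.131) and 0.145% on Day 14 (74 UMIs, 0.114 to 0.183). Outside it was 2.39% (1563 UMIs, 2.27 to 2.51), 0.0186% (65 UMIs, 0.0144 to 0.0238) and 0.289% (913 UMIs, 0.271 to 0.308). On both sides the days kept the order Day 3, Day 14, Day 7, although the Day 7 and Day 14 intervals under tissue overlapped between 0.114% and 0.131%. The muscle-rich limit kept 15 of the 436 slow UMIs under tissue on Day 7. With a limit of 2% in place of 5%, the shares under tissue were 0.247% on Day 7 and 0.353% on Day 14, and in all spots they were 0.310% and 0.367%.

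The pairs behaved differently on Day 7. Outside, Myh7 had no UMI beside 92042 UMIs of its 3 fast partners, which allows a share of up to 0.00326%, and Myl2 had none beside 76138 UMIs of Mylpf, which allows up to 0.00394%. Myl3 had a share of 0.00906% (4 UMIs), Tnnt1 one of 0.0166% (10 UMIs), Tnnc1 one of 0.0496% (22 UMIs) and Tnni1 one of 0.0918% (29 UMIs). On Day 3 the outside share of Myh7, at 2.79%, was above that of Tnni1, at 1.298%. Under tissue on Day 7 the counts were smaller still, with 1 UMI of Myh7, 0 of Myl2, 3 of Myl3, 6 of Tnnt1, 0 of Tnnc1 and 5 of Tnni1, or shares of 0% to 0.319%. The order of the pairs there was not that seen outside. Under tissue on Day 14, Myl3 held 0.706% (42 UMIs, 0.509 to 0.953) while the other pairs held 0.0433% to 0.119%.

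**Figure D2:**
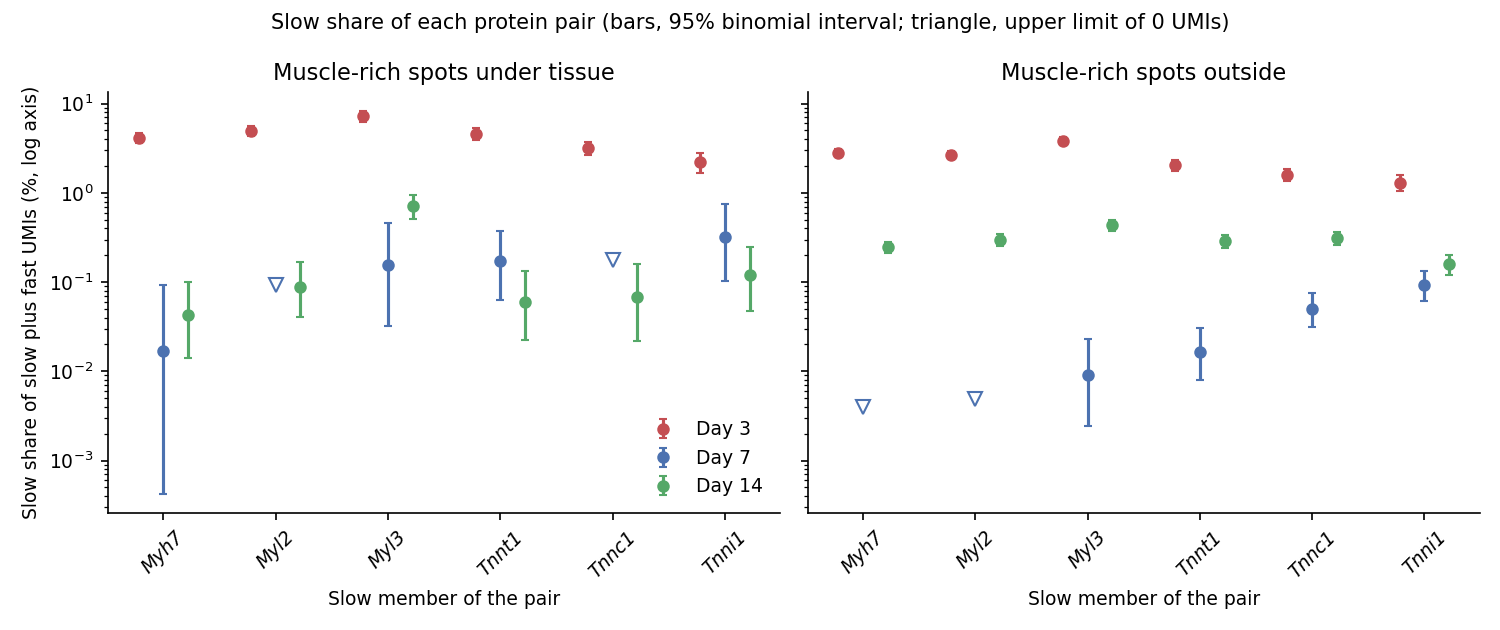
Slow share of each protein pair in percent (log axis) in muscle-rich spots under tissue (left) and outside (right), by day. Points are pooled shares, bars exact 95% binomial intervals and open triangles the upper limit where the slow gene had 0 UMIs. Outside, Day 3 shares lie between 1.298% and 3.84% and Day 7 shares at or below 0.0918%.

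Single spots showed how unevenly slow transcripts were spread. Among muscle-rich spots with at least 10 UMIs of the slow and fast genes together, the share under tissue on Day 3 ranged from 0% through a median of 0.444% to 34.4%, and 17.2% of 151 spots were above 5%. Outside on Day 3 the median was 0.775%, the highest spot reached 33.5% and 11.4% of 369 spots were above 5%. On Day 7 no spot under tissue was above 2.56% (86 spots), and outside 0.234% of 1713 spots were above 5%. On Day 14 the highest spot was at 2.93% under tissue and at 30.2% outside, with 1.44% of 1943 spots above 5% outside. Medians were 0% on Day 7 and Day 14 on both sides.

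Spots with at least 5 UMIs of the 6 genes, a limit set after the data were seen, numbered 164 on Day 3, 14 on Day 7 and 42 on Day 14. On Day 3 they held 68.4% of the 3883 UMIs of these genes, in 50 marked and 114 unmarked spots. Joined by adjacency they formed 47 groups, the largest of 26 spots. On Day 14 they held 39.4% of 1859 UMIs in 13 groups, the largest of 11 spots, and 32 of 42 were unmarked. On Day 7 they held 33.4% of 649 UMIs, all 14 were under tissue and 10 of them formed 1 group.

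The richest spots differed in which slow genes they held. The richest Day 3 spot, under tissue, held 28 UMIs of Myh7, 29 of Myl2, 21 of Myl3, 15 of Tnnt1, 12 of Tnnc1 and 5 of Tnni1. The richest Day 14 spot, 6.56 spot pitches outside the marked area, held 34, 25, 43, 43, 25 and 9 UMIs of the same genes. All 6 sarcomeric slow genes were thus present together in each of them. The richest Day 7 spot held 22 UMIs of Tnni1 and 9 of Tnnc1 and none of the other 4. The 6 richest spots of Day 7 held no UMI of Myh7, Myl2 or Myl3.

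**Figure D3:**
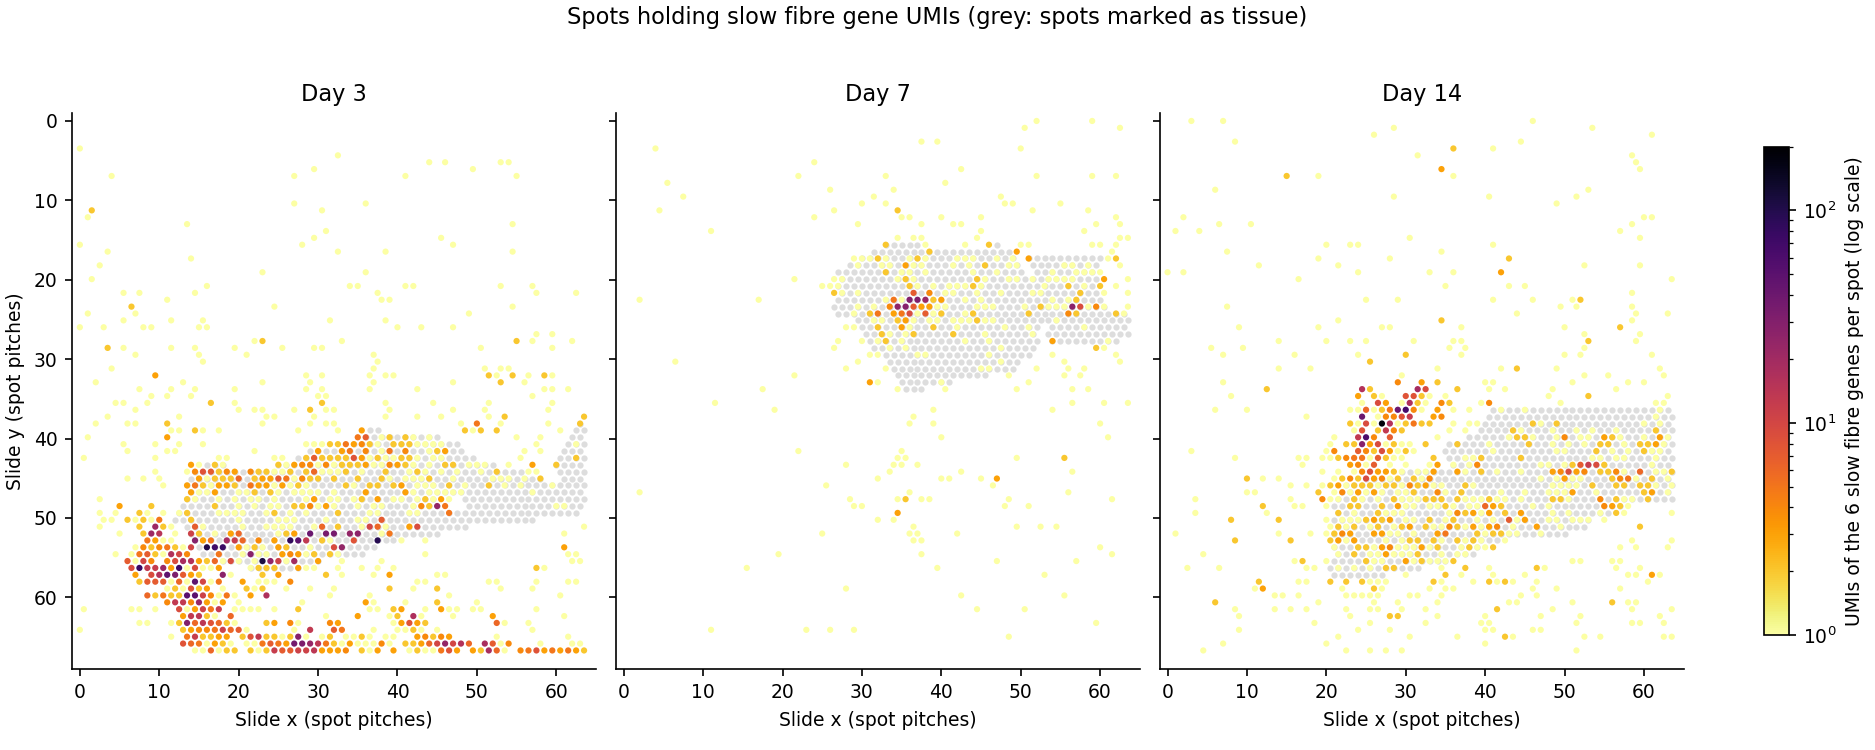
Spots of each slide with at least 1 UMI of the 6 sarcomeric slow genes, coloured by their UMIs (log scale), over the spots marked as tissue in grey; both axes are in spot pitches. Rich spots line the deep edge of the marked tissue and unmarked spots on Day 3, gather around a group of 10 spots inside the marked tissue on Day 7 and form a patch beside it on Day 14.

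Depth in the skin was followed by cutting the marked tissue into 4 layers from the epidermal side. The epidermal genes Krt10, Krt1, Krt5, Krt14 and Krtdap together went from 9166 CPM in the outermost to 401 CPM in the deepest layer of Day 3, which shows the direction. From the outermost layer inward the 6 slow genes stood at 306, 279, 1812 and 3261 CPM on Day 3, so the deepest layer, with 772 of 1523 UMIs, was the richest. On Day 7 the levels from the outermost layer inward were 40.7, 155, 102 and 57.1 CPM, and the layer next to the outermost held 244 of 436 UMIs. On Day 14 the layers differed less, at 97.2, 122, 172 and 203 CPM. The fast partners were highest in the deepest layer on every day, at 66243, 71024 and 82961 CPM. On Day 7 the summed slow genes and the fast genes thus did not peak in the same layer. The sum was mostly troponin on Day 7: of its 436 UMIs, Myh7 had 2, Myl2 had 0 and Myl3 had 8. On Day 3 these 3 genes had 321, 354 and 299 of the 1523 UMIs, so the sum did not stand for the same genes on both days.

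Distance to the nearest marked spot gave the pattern outside. On Day 3 the 6 genes stood at 832 CPM up to 2 pitches away, 1211 CPM at 2 to 5, 1741 CPM at 5 to 10 and 1457 CPM beyond 10 pitches. On Day 7 the same bins held 56.6, 43.3, 28.0 and 26.1 CPM. On Day 14 they held 199, 295, 543 and 92.4 CPM, so the level was highest at 5 to 10 pitches, where 715 of the 1234 outside UMIs lay. On Day 3, spots of the 2 outermost rows and columns of the slide held 12.6% of the UMIs of the 6 genes and 5.42% of all UMIs. Without those spots the outside level of Day 3 was 1233 CPM in place of 1386 CPM.

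For the slow troponins and the summed 6 genes, outside and under tissue compared differently on Day 7 than on the other days. On Day 3 none of the 8 members was at least 2-fold higher outside (3.4% of 7998 genes), and the summed 6 genes were 1.61-fold higher there (1.51 to 1.72). On Day 14, 3 of 8, Myh7, Myl2 and Tnnt1, were at least 2-fold higher outside (2.46% of 11475 genes). On Day 7, 3 of the 5 members with at least 50 UMIs, the slow troponins, were at least 2-fold lower outside (8.91% of 11525 genes). Their levels outside were 3.29-fold lower for Tnnt1 (1.98 to 5.63), 2.87-fold lower for Tnnc1 (2.18 to 3.80) and 3.49-fold lower for Tnni1 (2.72 to 4.53). The median log2 ratio of all genes was -0.38, -0.38 and -0.54 on Day 3, Day 7 and Day 14. The direction on Day 3 depended on the scale: per UMI of the 10 common muscle genes, the summed log2 ratio turned from 0.69 to -0.34 on Day 3, and moved from 0.95 to 0.01 on Day 14 and from -1.57 to -2.60 on Day 7.

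A part of the Day 7 troponin UMIs lay in spots that also held genes of young fibres. Myh3 and Myh8 are the embryonic and perinatal myosin heavy chains and Myl4 is the embryonic light chain. Spots with at least 5 UMIs of these 3 genes, a class defined after the data were seen, numbered 0 on Day 3, 35 on Day 7 (31 under tissue) and 10 on Day 14 (all under tissue). The 35 spots of Day 7 held 4.33% of all UMIs and 43.6% of the Tnni1 UMIs, 34.9% of the Tnnc1 UMIs and 28.0% of the Tnnt1 UMIs. In them Tnni1 stood at 280 CPM against 16.4 CPM elsewhere (log2 ratio 4.09, 3.75 to 4.43), Tnnc1 at 178 against 15.1 CPM (3.56, 3.16 to 3.95) and Tnnt1 at 44.5 against 5.18 CPM (3.10, 2.30 to 3.85). Myh7 and Myl2 had no UMI in these spots and Myl3 had 1. The 3 genes that define the class came from a list of 10 embryonic or regenerating genes. Actc1, the gene of that list with the most UMIs, stood at 879 CPM in these spots and 1104 CPM elsewhere (log2 ratio -0.33, -0.47 to -0.19). Elsewhere means all other spots of the slide, most of them unmarked, where Actc1 was higher than under tissue on Day 7. The rest of the list was not read for this class. The fast partners stood at 28462 CPM in the 35 spots and 57885 CPM elsewhere, beside 31537 CPM over all marked spots. On Day 7 the fast partners were higher outside than under tissue and the troponins lower, so the ratios to elsewhere mix the 2 sides. Only 1 of the 35 spots was muscle-rich. Their median depth was 13512 UMIs, against 598 UMIs over all spots of the slide, and the part of depth in these shares was not tested.

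On Day 14 the 10 such spots gave the same order of troponins with fewer molecules. Tnni1 stood at 231 against 16.2 CPM (24 UMIs in these spots, log2 ratio 3.84, 3.15 to 4.47) and Tnnc1 at 135 against 30.9 CPM (14 UMIs, 2.13, 1.24 to 2.90). The Tnnt1 interval reached both sides of 0 (7 UMIs, log2 ratio 1.05, -0.28 to 2.11). Myh7 had 1 UMI there, Myl3 had 2 and Myl2 had none. Of the 14 slow-rich spots of Day 7, 11 were in the young-fibre class, as were 4 of 42 on Day 14. Without that class, the summed Day 7 log2 ratio of outside over under tissue was -0.59 in place of -1.57.

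**Figure D4:**
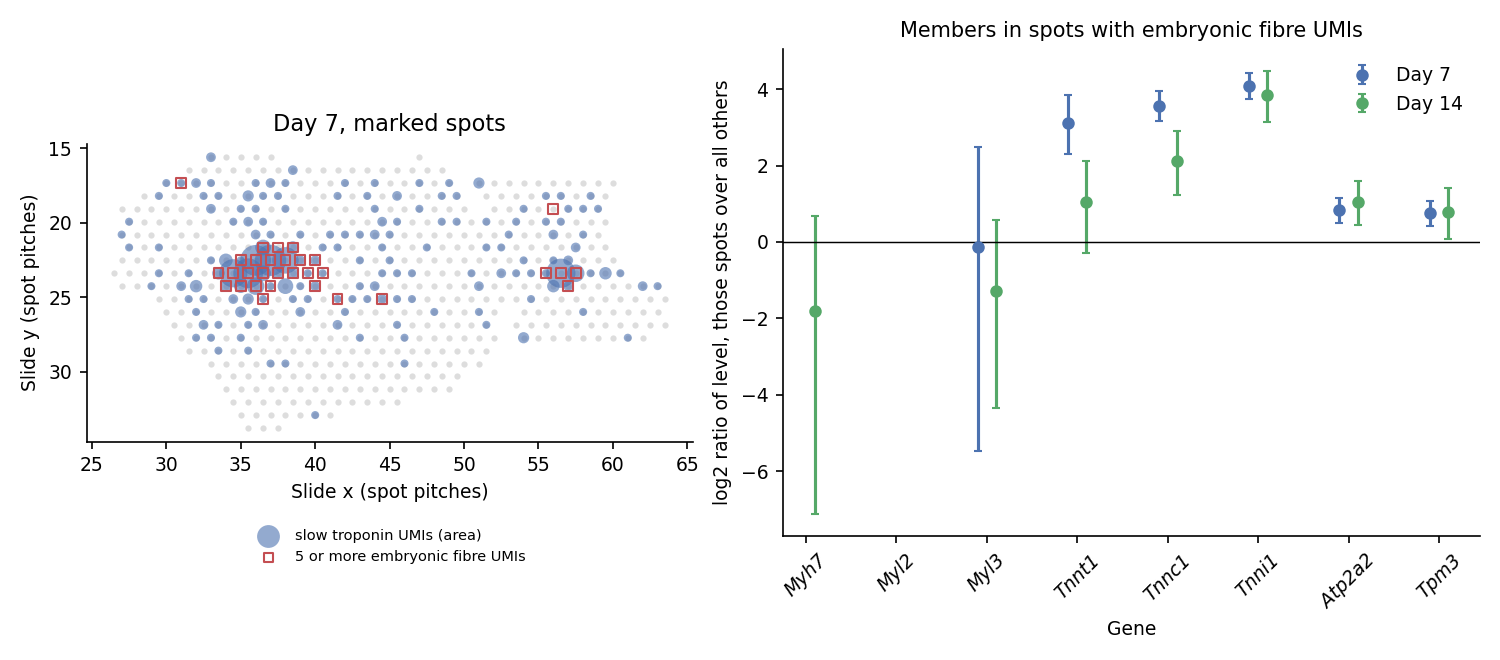
Left, marked spots of Day 7 (axes in spot pitches), with the area of blue circles growing with the UMIs of Tnnt1, Tnnc1 and Tnni1 and red squares around spots with 5 or more UMIs of Myh3, Myh8 and Myl4. Right, log2 ratio of each gene's level in such spots over all other spots of the slide on Day 7 and Day 14, with 95% counting intervals, drawn where both counts were above 0; Tnni1 lies at 4.09 and 3.84.

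The members also differed in how far they were tied to muscle. In spots with under 2% of UMIs from the common muscle genes, Atp2a2 stood at 228, 141 and 164 CPM and Tpm3 at 172, 186 and 147 CPM under tissue on Day 3, Day 7 and Day 14. In muscle-rich spots under tissue the 2 genes were at 564.5 and 671 CPM on Day 3, but at 127 and 83.1 CPM on Day 7 and at 58.3 and 60.5 CPM on Day 14. Under tissue they thus stood above the muscle-poor level in muscle-rich spots on Day 3 and not on the later days. Outside on Day 3, Tpm3 stood at 184.5 CPM in muscle-poor and 334 CPM in muscle-rich spots, whereas Atp2a2 stood at 233 CPM (190.6 to 282) and 245 CPM (209 to 285), which overlap. Myh7 stood at 59.6 CPM in muscle-poor and 821 CPM in muscle-rich spots under tissue on Day 3. On Day 14 under tissue it stood at 10.6 CPM (6.18 to 16.98) in muscle-poor and 10.8 CPM in muscle-rich spots. The muscle-rich level rested on 5 UMIs (3.51 to 25.2). Spots with 2% to 5% of UMIs from the common muscle genes held 64 of its 86 UMIs there. Their level was 25.1 CPM (19.4 to 32.1), above the muscle-poor level beyond counting error. Outside on Day 14, Myh7 stood at 17.6 CPM in muscle-poor and 68.4 CPM in muscle-rich spots. Tnni1 on Day 7 under tissue stood at 52.0 CPM (42.3 to 63.1) in muscle-poor and 24.4 CPM in muscle-rich spots. The muscle-rich level rested on 5 UMIs (7.94 to 57.1), so the 2 levels were not separated beyond counting error.

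Shares of spots with a UMI were compared after thinning every spot to 1000 UMIs, which left out 238, 24 and 18 marked spots. Among muscle-rich spots under tissue, Myh7 was found in 27.0% of 111 spots on Day 3, 1.32% of 76 on Day 7 and 0 of 148 on Day 14, which allows a share of up to 2.03%. In muscle-poor spots, with under 2% of UMIs from the common muscle genes, it was found in 7.17% of 251, 0 of 132 and 1.44% of 139 spots. The Day 7 and Day 14 shares in muscle-rich spots under tissue were not above these beyond counting error. Muscle-poor spots were not free of muscle, since they held 11813, 17098 and 19530 CPM of the fast partners. Without thinning, the muscle-rich shares of Myh7 were 31.1%, 1.16% and 2.56%, at median depths of 1569, 2265.5 and 2866 UMIs, and the muscle-poor shares were 22.4%, 0% and 12.1%, at 3078.5, 13412 and 10958 UMIs. Myl3 on Day 14 was found in 10.8% of the 148 thinned muscle-rich spots (6.31 to 16.96), against 2.16% of the 139 muscle-poor spots (0.447 to 6.18), and these intervals did not overlap. Intervals of shares of spots take the spots of 1 section as separate draws, which they are not, so these comparisons are descriptions.

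Across muscle-rich spots the 6 sarcomeric genes varied together on Day 3 and Day 14. Pearson's r of log-scaled levels over 530 spots of Day 3 ranged from 0.41 to 0.50 over the 15 pairs, with a median Spearman's rho of 0.44. Over 2108 spots of Day 14 it ranged from 0.23 to 0.40, with a median rho of 0.32. Myh7 and the fast heavy chain gene Myh4 had r of 0.02 and rho of -0.04 on Day 3, and r of -0.05 and rho of -0.07 on Day 14. On Day 7 counts were too sparse for a reading, with 1 UMI of Myh7 and Myl2 in 1811 muscle-rich spots. Spots of a section share its library and differ in depth, so these values are descriptions.

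Genes whose levels were most like that of Myh7 plus Myl2 across muscle-rich spots were ranked by mean r over the 3 slides among 985 genes. They were Mb (myoglobin, the oxygen store of oxidative fibres), Fhl1, Actn2, Ldhb (the lactate dehydrogenase subunit of oxidative tissue) and Mybpc1 (slow myosin-binding protein C), with mean r of 0.15, 0.15, 0.14, 0.14 and 0.13. With Day 7 left out, Csrp3 took the place of Mybpc1, and the mean r of the leading gene, Ldhb, was 0.21. Mb stood at 2455, 153 and 524 CPM outside on the 3 days and Actn2 at 386, 70.5 and 108 CPM. Actn2 is also among the 10 common muscle genes that define the muscle-rich spots in which it was ranked.

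Other genes of slow or oxidative fibres, a list of 11, were mostly lower on Day 7 as well. Outside, 7 of the 9 with at least 50 UMIs were at least 2-fold lower on Day 7 than on Day 3 (5.57% of all genes), with a median log2 ratio of -2.71. Outside, 4 of 9 were at least 2-fold higher on Day 14 than on Day 7 (5.31% of all genes). Under tissue, 6 of 9 were at least 2-fold lower on Day 7 than on Day 3 (6.49% of all genes) and 1, Casq2, was at least 2-fold higher (8.04% of all genes). The log2 ratio of Mb for Day 7 over Day 3 was -4.01 outside (-4.11 to -3.91) and -1.58 under tissue. That of Fabp3, a fatty acid carrier of oxidative muscle, was -2.68 outside and -1.65 under tissue, and that of Mybpc1 was -2.71 and -0.88. Myoz2, a slow-fibre Z-disc protein named after its values were seen, was at 123, 2.01 and 18.9 CPM. Among genes for the fast fibre, 2 of 12, Myh2 and Myh1, were at least 2-fold lower outside on Day 7 than on Day 3 (5.57% of all genes) and 2 were at least 2-fold higher (9.8% of all genes). Myh2, the heavy chain of fast oxidative fibres, was at 1051, 15.2 and 167 CPM outside, and Myh1 at 2240, 531 and 760 CPM. Myh4, the heavy chain of the fastest fibres, had the opposite order of its first days, at 9005, 19247 and 18447 CPM.

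**Figure D5:**
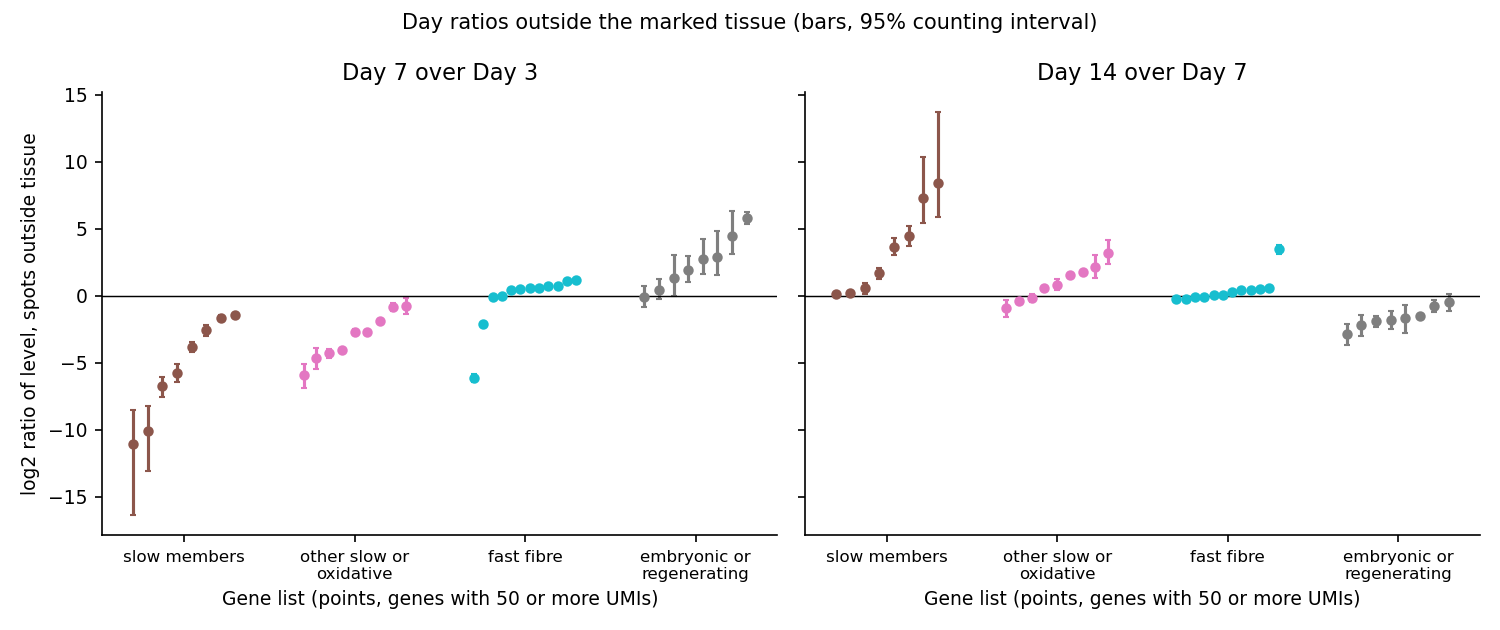
Log2 ratio of level outside the marked tissue for Day 7 over Day 3 (left) and Day 14 over Day 7 (right), for the slow members and the lists of other slow or oxidative, fast, and embryonic or regenerating fibre genes. Points are genes with at least 50 UMIs over the pools, and bars are 95% counting intervals. All 8 members lie below 0 on the left, with Myl2 at -11.03, and Myh2 is the lowest of the fast list.

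Genes that regulate the fibre type were mostly within 2-fold between days, as were most genes, whereas 1 regulator of the pump was not. Of 4 SERCA regulators, Pln (phospholamban) had 17 UMIs and Strit1 16 UMIs on the 3 slides together, Sln (sarcolipin) stood at 105, 21.2 and 11.5 CPM outside and Mrln (myoregulin) at 85.7, 74.0 and 98.8 CPM. Of the 2 with enough UMIs outside, 1, Sln, was at least 2-fold lower on Day 7 than on Day 3, against 5.57% of all genes. Of 14 regulators of fibre type, 9 had enough UMIs under tissue for Day 7 over Day 3, and none was past 2-fold in either direction. Of all genes, 6.49% were at least 2-fold lower there and 8.04% at least 2-fold higher. Among the 12 with enough UMIs outside, 1, Six4, was at least 2-fold higher with 47 UMIs on Day 7 (9.8% of all genes). None was at least 2-fold lower (5.57% of all genes). These counts are near the shares of all genes and do not set the regulators apart. The most abundant of them, the transcription factor Mef2c, stood at 137, 144 and 210 CPM outside, and Tead1 at 92.8, 63.5 and 65.3 CPM.

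The embryonic or regenerating list of 10 genes was higher on Day 7. Outside, 6 of the 8 with enough UMIs were at least 2-fold higher on Day 7 than on Day 3, against 9.8% of all genes, and under tissue 7 of 7 were, against 8.04%. Actc1, an actin of heart and young skeletal muscle, stood at 11.3, 614 and 182 CPM under tissue and 25.8, 1425 and 492 CPM outside. Myl4 stood at 7.34, 188 and 39.2 CPM under tissue. The 35 young-fibre spots of Day 7 held 3.48% of the Actc1 UMIs of the slide and 4.33% of all UMIs. Of these spots 31 were under tissue, and Actc1 stood at 879 CPM in the 35 spots, against 614 CPM over all marked spots.

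Myh7, Myl2, Myl3, Tnnc1 and Atp2a2 are also heart genes, and markers of other tissues were read beside them. Nppa and Myl7 had no UMI on any slide, and Myh6, the neighbour of Myh7 that shares much of its sequence, had 8, Nppb 4 and Mybpc3 3 UMIs over the 3 slides. Tnni3 had 117 UMIs, at 1.76 to 8.24 CPM. Among smooth muscle genes, Acta2 stood at 93.1, 474 and 174 CPM under tissue and did not follow the day order of the myosin genes. The 4 haemoglobin genes that mark blood did follow it: summed, they stood at 4442, 401 and 1940 CPM under tissue and at 12752, 1417 and 5796 CPM outside on Day 3, Day 7 and Day 14. On both sides all 4 were at least 2-fold lower on Day 7 than on Day 3, against 6.49% of all genes under tissue and 5.57% outside. All 4 were also at least 2-fold higher on Day 14 than on Day 7, against 10.9% and 5.31% of all genes. Col1a1, a fibroblast collagen, stood at 22693, 30561 and 17471 CPM and the neutrophil gene S100a8 at 622, 13.3 and 17.1 CPM under tissue. The part of blood and of the other cell types in the slow gene levels was not tested.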

How the data were processed

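Gene expression was measured on 3 Visium slides, 1 section per day, so each group held 1 sample and no p-value was computed. The authors deposited raw UMI counts per gene and spot, with position lists that mark the spots under tissue. Space Ranger 1.3.0 and the mm10 build are named in the submitters' processing notes.

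The 8 genes and all gene lists were chosen with earlier results of these data known. Counts were pooled over the spots of each side and divided by the side's total to give CPM. Intervals (95%) are exact: Poisson for levels, Clopper-Pearson for shares and conditional binomial for ratios. In shares, a count of 0 was given a limit of 3 counts. All intervals cover counting error only, and no interval measures the spread between animals. Those of shares of spots take each spot of a section as a separate draw, although such spots are not independent. Genes with at least 50 UMIs over the pools compared entered the counts past 2-fold. Muscle-rich spots had at least 200 UMIs and at least 5% of them from Acta1, Ckm, Ttn, Neb, Des, Tcap, Actn2, Ldb3, Myot and Cox6a2. Spots were thinned to 1000 UMIs (seed 1) for shares of spots with a UMI. A background class with under 0.1% of these UMIs held 1 spot under tissue and 13 outside on Day 3 and none on the other days, so spots under 2% were used, a choice made after the data were seen. Spot correlations used log1p of UMIs per 10000. No doublet caller was run.

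Genes named were the 8 members, their fast partners, up to 4 genes of each list by UMIs, listed defining markers with no UMI, and the 5 genes nearest to Myh7 plus Myl2 among genes with at least 100 UMIs in the muscle-rich spots of each slide. Myoz2, Casq2, Six4, Csrp3 and Myh3 were named after their values were seen. Gene positions came from GENCODE M21 and start windows from RefSeq or the genome, both on GRCm38.p6. Python 3.11.15, numpy 2.4.6, scipy 1.17.1, pandas 2.3.3 and matplotlib 3.10.9 were used, with TMM factors from edgeR 4.0.16 and size factors from DESeq2 1.42.0 in R 4.3.3 as alternatives. The interval and ratio code was tested on simulated data.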

Additional observations from a re-analysis of the deposited data

Results flagged for a closer look

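For the slow troponins and the sum that they dominated on Day 7, the log2 ratio of outside over under tissue had the opposite sign on Day 7 to that on the other days. The other members did not show this. On Day 7 Myl3 gave 0.55 (-0.74 to 1.97), with the sign of the other days, and Myh7 gave -0.54 (-4.33 to 3.25) on 2 UMIs per side. Atp2a2 was negative on every day, and Tpm3 was negative on both Day 7 and Day 14. The contrast of days has no replicate sections, so it carries no test. For the 6 sarcomeric slow genes summed, Day 3 gave 0.69, Day 7 gave -1.57 and Day 14 gave 0.95. For Tnnt1 it was 0.52, -1.72 and 1.09, and for Tnnc1 it was 0.59, -1.52 and 0.73. For Tnni1 it was 0.46 on Day 3 and -1.81 on Day 7. Per UMI of the 10 common muscle genes the summed Day 3 value was -0.34, which has the sign of Day 7. Median depth differed between these pools too, at 1513, 6687 and 4827 UMIs per spot under tissue and 91, 453 and 350 UMIs outside, and its part was not tested.

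Day 14 over Day 7 had opposite signs on the 2 sides of the slides for 3 members, again with no test of the difference. The log2 ratio of Tnnc1 was -0.58 under tissue and 1.67 outside, that of Tnni1 was -1.51 and 0.55, and that of Tpm3 was -0.21 and 0.20.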

How the results depend on the processing

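No paired analysis was possible because each day had 1 section. The values below are log2 ratios of the 6 sarcomeric slow genes summed. In the mean of spot CPM they were -3.73 (Day 7 over Day 3), -2.95 (Day 14 over Day 3) and 0.79 (Day 14 over Day 7) under tissue, -4.64, -2.06 and 2.58 outside, and -0.25, -1.16 and 0.64 for outside over under tissue on Day 3, Day 7 and Day 14. Per pan-muscle UMI they were -3.33, -3.13 and 0.21 under tissue, -2.77 for Day 14 over Day 3 outside, and -0.34, -2.60 and 0.012 for outside over under tissue. With TMM they were -2.81 for Day 14 over Day 3 under tissue and 1.08, -1.20 and 1.40 for outside over under tissue. With DESeq2 size factors they were -2.83 under tissue and -2.51 outside for Day 14 over Day 3, and 1.07, -1.26 and 1.39. Without the 5 richest spots per side they were -2.29 and 0.91 (Day 14 over Day 3 and over Day 7) under tissue, -2.72 and 2.55 outside, and 0.95, -1.12 and 0.52. With spots of at least 500 UMIs they were -5.62 (Day 7 over Day 3) and -2.57 (Day 14 over Day 3) outside, and 0.87 for outside over under tissue on Day 3, which was 0.81 without mitochondrial and haemoglobin genes. In alternatives added after the data were seen, leaving out the slide's 2 outermost rows and columns gave -2.19 for Day 14 over Day 3 outside and 0.52 for outside over under tissue on Day 3, and leaving out young-fibre spots gave -0.59 for Day 7.

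The slow share on Day 3 under tissue was 3.82% at a muscle limit of 2%, 0.965% at 10%, 3.32% in all spots, 3.35% as a mean over spots, 2.57% without the 5 richest spots and 4.61% with at least 1000 UMIs. On Day 3 outside it was 1.303% at 10%, 2.11% as a mean, 1.91% without the richest and 2.58% with at least 1000 UMIs. On Day 7 it was 0.247% at 2% and 0.310% in all spots under tissue, with no spot at 10%, and outside 0.0401% at 2%, 0% at 10% (which allows up to 0.0181%), 0.0446% in all spots and 0.0385% as a mean. On Day 14 it was 0.353% at 2%, 0% at 10% (up to 0.328%), 0.367% in all spots and 0.196% as a mean under tissue, and outside 0.0595% at 10% and 0.169% without the richest. Of 626 log2 values over these settings, 30 changed sign, 14 of them per pan-muscle UMI and 11 in the mean of spot CPM. The causes were not tested. A gene minimum of 200 UMIs moved all 9 counts of genes past 2-fold by over 1.5 times. For Day 7 over Day 3, Day 14 over Day 3 and Day 14 over Day 7 these went from 684, 748 and 1283 genes to 329, 358 and 597 under tissue and from 590, 580 and 609 to 239, 238 and 236 outside. For outside over under tissue they went from 272, 1027 and 282 to 137, 494 and 175. At 20 UMIs, 2 of 9 moved that far, to 881 (Day 14 over Day 3 outside) and 412 (outside over under tissue on Day 3). With 1 section per day, no setting measures the spread between animals.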
